A study of Mus musculus with 2 samples.

Results

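The 5 mouse genes that encode the subunits of kinesin-2 motors, Kif3a, Kif3b, Kif3c, Kifap3 and Kif17, were followed in the mandibular prominence, the paired facial swelling that forms the lower jaw. They were taken by gene symbol and make up 5 of 30723 genes in the deposited tables, with 14 of 59055 transcripts. RNA was sequenced from 1 control library and 1 library of Kif3a f/f; Wnt1-Cre embryos, in which Kif3a is floxed and the Wnt1 promoter drives Cre in neural crest cells and their descendants. Each library pooled the prominences of 10 embryos labelled E11.5 (embryonic day), on a mixed CD1 background. The labels do not give the genotype of the control embryos beyond the word control, nor which Kif3a exons are flanked by loxP sites. The naming of the deposited tables differs from the labels in placing the mutant embryos at day 11, and it assigns the libraries to separate sequencing runs. It gives CD1 for the control and no strain for the mutant. Stage, run, any difference of strain and genotype therefore cannot be told apart.

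Kinesin-2 motors walk along microtubules and carry the intraflagellar transport trains that build and maintain the primary cilium, on which Hedgehog signalling in vertebrates depends. KIF3A pairs with KIF3B, or with KIF3C, and the accessory subunit KAP3, encoded by Kifap3, joins the pair to form a heterotrimer. KIF17 works as a homodimer, apart from this complex.

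Kif3a is the gene deleted in the mutant, and its full-length transcripts differ only in small parts of the coding sequence. The exon chains of GENCODE release M21 (GRCm38) gave the exact deposited length for 13 of the 14 transcripts once their outer ends were set to the deposited locus. The longest Kif3a transcript, of 5438 bases, holds a short exon of 9 bases at chr11:53590717-53590725 (exon 10 of the matching annotated transcript). The transcript of 5429 bases lacks this exon. The transcript of 5417 bases keeps it but starts the next exon 21 bases later, and so lacks chr11:53593374-53593394. The transcript of 526 bases covers only exons 7 to 10 of another annotated transcript, of which the last is an extra exon of 72 bases at chr11:53588689-53588760. All 3 parts are annotated as coding, and each length is a multiple of 3, so the annotated reading frame is kept with or without them. The first 3 lines below run from the last 24 bases of exon 9 into the following shared sequence, and the last gives the extra exon alone, all on the plus strand of chromosome 11. The deposited transcript of 526 bases ends at 53588745 and so holds 57 of the 72 bases of the extra exon. The sequences are shown because only reads across these junctions separate the near-identical transcripts. Capitals mark the parts that differ among them. In the line of the transcript of 5438 bases these are the 9 bases of the short exon followed by the 21 bases that begin the next exon.
Kif3a, 5438 bases: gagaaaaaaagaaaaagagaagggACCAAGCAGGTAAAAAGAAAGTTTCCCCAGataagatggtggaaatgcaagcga
Kif3a, 5429 bases: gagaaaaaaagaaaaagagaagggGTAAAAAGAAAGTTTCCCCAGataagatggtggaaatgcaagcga
Kif3a, 5417 bases: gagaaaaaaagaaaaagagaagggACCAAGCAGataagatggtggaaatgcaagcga
Kif3a, extra exon of 72 bases: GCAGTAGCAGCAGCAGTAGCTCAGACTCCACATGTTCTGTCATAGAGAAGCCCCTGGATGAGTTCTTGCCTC

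Kif3a RNA was lower in the mutant library. The gene lies on chromosome 11 from 53567379 to 53604244 and encodes a motor subunit of the heterotrimer. It stood at 11.46 FPKM in the control (95% counting interval 10.9 to 12.1, about 1456 fragments) and at 5.39 FPKM in the mutant (5.03 to 5.78, about 803 fragments). FPKM divides the fragments of a transcript by its length and by the mapped fragments of the library, and is the sum of a gene's transcripts here. The mutant to control ratio was 0.471 (0.431 to 0.514), so the mutant value was 52.9% lower. The intervals do not overlap, but they cover counting error in these libraries and not variation between embryos or dissections. With 1 library per group there is no replicate check, and no p-value was computed. As the RNA came from whole tissue, fewer cells of a type and less RNA per cell cannot be told apart, and the FPKM covers whole transcripts rather than the deleted part.

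On the scale used for all genes, log2((mutant FPKM + 1) / (control FPKM + 1)), Kif3a had a log2 ratio of -0.96, just short of the -1 that was counted as 2-fold lower. For its full-length transcripts alone it was -0.86. Of the 12259 genes compared, all with a mean of at least 1 FPKM, 180 had a lower log2 ratio than the -0.96 of Kif3a (1.47%). The other members over this filter lay closer to the median gene, at -0.13. Kif3c had -0.35, Kifap3 -0.21 and Kif3b -0.03, while Kif17 was under the filter. Of the 4 members compared, 0 were 2-fold different, against 2.13% of all genes, and 1, Kif3a, was at least 1.5-fold different, against 8.33% of all genes. In the direction of lower values, 1.36% of all genes were 2-fold lower and 5.57% at least 1.5-fold lower, and in the other direction 0.767% were 2-fold higher and 2.76% at least 1.5-fold higher. Kif3a was chosen as the deleted gene, so nothing about the family is read from these counts.

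**Figure D1:**
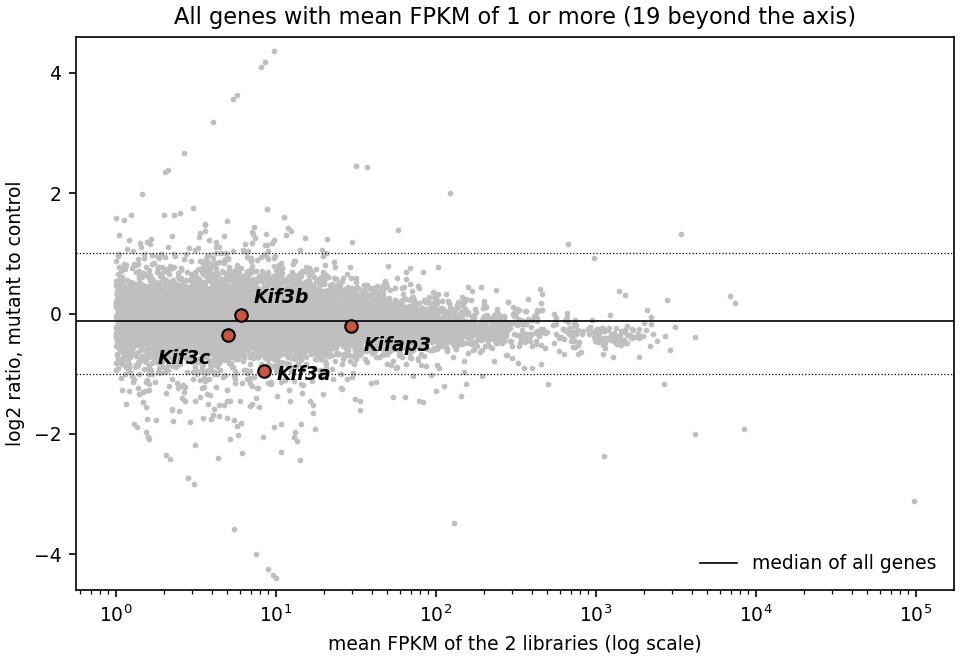
Log2 ratio of mutant to control FPKM (y axis, pseudocount 1) against the mean FPKM of the 2 libraries (x axis, log scale) for the 12259 genes compared, in grey, with the 4 measured kinesin-2 genes in red. Dotted lines mark 2-fold, the solid line is the median gene at -0.13, 19 genes lie beyond the y axis, and Kif3a at -0.96 sits just inside the lower dotted line.

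The Kif3a transcripts did not differ in parallel. The transcript of 5438 bases, the most abundant, had control and mutant levels of 9.57 and 4.18 FPKM. The transcript of 5429 bases, without the short exon, went the other way, from 0.159 to 1.14 FPKM. The transcript of 5417 bases stood at 0.761 FPKM in the control library and near 0, at 0.000129, in the other. All 3 share the same start and end, so their shares of the full-length total can be compared.

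Transcripts without the short exon made up 1.52% of the full-length Kif3a FPKM in the control library and 21.4% in the mutant library. Full-length transcripts that hold the short exon stood at 10.3 and 4.18 FPKM, so the mutant to control ratio was 0.405, lower than for the gene as a whole. This share rests on few reads: the mean coverage of the 3 full-length transcripts together was 41.4 per base in the control and 22.6 in the mutant, and only reads across the junctions printed above bear on it. The deposited values are apportioned between near-identical transcripts by the authors' tool, so no counting interval is given for the shares.

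The short Kif3a transcript of 526 bases, which spans part of the body of the gene, had levels of 0.970 FPKM (control) and 0.0743 FPKM (mutant), from about 13 fragments and 1 fragment. Its mutant to control ratio was 0.0766, with a counting interval of 0.00180 to 0.510. The ratio of the full-length transcripts was 0.507 (0.465 to 0.553). The ratio of these ratios was 0.151, with an exact conditional interval of 0.00355 to 1.01 that rests on a single fragment in the mutant and just reaches 1. The fragments are approximated from values that the authors' tool apportioned between overlapping transcripts. The intervals do not cover the error of that step.

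**Figure D2:**
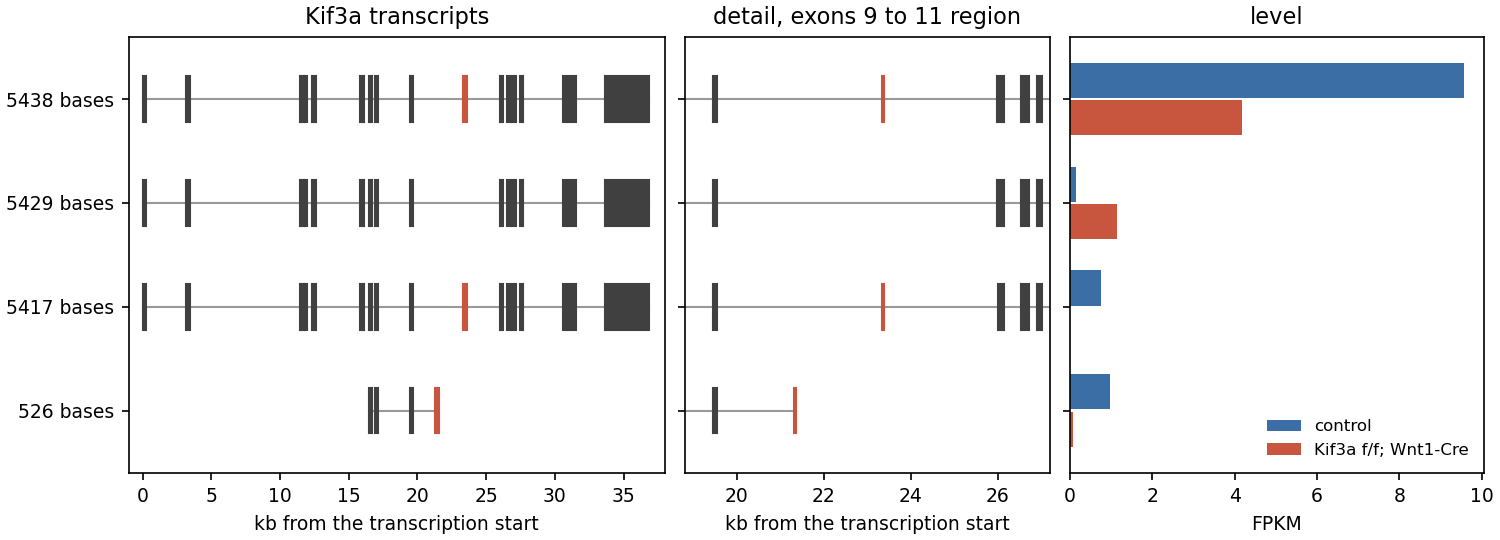
Exon chains of the 4 deposited Kif3a transcripts against kb from the transcription start (left, with a detail of the region around the short exon in the middle) and their FPKM in the control (blue bars) and mutant (red bars) library (right). Short and extra exons are red, narrow exons are drawn at a minimum width, and only the transcript of 5429 bases, without the short exon, is higher in the mutant, at 1.14 against 0.159 FPKM.

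Kif3b, the usual motor partner of KIF3A, lies on chromosome 2 from 153291416 to 153333389 and has 1 deposited transcript, of 5631 bases. It stood at 6.16 FPKM in the control (5.76 to 6.59, about 876 fragments) and 6.01 in the mutant (5.63 to 6.41, about 937 fragments). The libraries overlap within counting error, and the mutant to control ratio was 0.975 (0.888 to 1.07).

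Kif3c, the alternative partner of KIF3A and known for its expression in neurons, lies on chromosome 12 from 3365132 to 3406494. It stood at 5.78 FPKM in the control (5.43 to 6.15) and 4.32 in the mutant (4.03 to 4.63). The intervals do not overlap, and the mutant to control ratio was 0.748 (0.681 to 0.821). The log2 ratio of Kif3c was above 0, at 0.14, only with TPM-like scaling to a common total, where the median gene was at 0.39. The transcript of 6849 bases carried nearly all of the Kif3c FPKM, at 5.50 and 4.32. The transcript of 6574 bases, in which an intron is removed near the 5′ end, stood at 0.281 FPKM in the control and near 0 in the mutant.

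Other transcripts overlap Kif3c, and without a stated strand their reads cannot be told apart from its own. The clone AK181663, of 699 overlapping bases near the 5′ end, stood at 3.56 and 2.03 FPKM. The antisense gene 1110002L01Rik overlaps the 3′ end by 2612 bases and stood at 8.61 and 7.84 FPKM. The Kif3c values are therefore uncertain. No overlap with a gene above 0 was found for Kif3a, Kif3b or Kifap3. The clone AK038603 ends 66 bases before the start of Kif3a and stood at 0.0246 and 0.237 FPKM. Il4, 8217 bases beyond its end, was listed at 0 and stood at 0.0673 FPKM in the mutant, and 2500004C02Rik, beside Kif3b, stood at 8.78 and 7.46.

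Kifap3, which encodes the subunit that links the motor pair to its cargo, lies on chromosome 1 from 163779679 to 163917100 and was the most abundant member. It stood at 32.04 FPKM in the control (30.9 to 33.2) and 27.5 in the mutant (26.4 to 28.5). The mutant to control ratio was 0.857 (0.813 to 0.904), a difference larger than counting error but close to that of the median gene. With TPM-like scaling the log2 ratio of Kifap3 was 0.35 and that of the median gene 0.39. The transcript of 3907 bases, with the full set of 21 annotated exons, stood at 18.3 and 16.8 FPKM. The transcript of 2907 bases begins at exon 8 and so lacks the 5′ exons. It stood at 13.7 and 10.7 FPKM, with a mutant to control ratio of 0.777 (0.709 to 0.852) against 0.917 (0.859 to 0.979) for the longer transcript. Both end at the same position, and the authors' tool apportioned the deposited values between them. These intervals do not cover the error of that step, so no difference between the transcripts is read from them.

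Kif17, the homodimeric motor, was near the detection limit in both libraries. It lies on chromosome 4 from 138250411 to 138301973 and stood at 0.180 FPKM in the control (0.0961 to 0.309, about 13 fragments) and 0.470 in the mutant (0.329 to 0.650, about 36 fragments). The mutant value was 2.60 times the control value, with a wide interval of 1.35 to 5.35. The pseudocount brings this down to a log2 ratio of 0.32, and with a pseudocount of 0.1 it was 1.02.

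The deposited Kif17 values were spread over different transcripts in each library, on about 13 and 36 fragments. The authors' tool apportioned them between overlapping transcripts, so no switch between transcripts is read from them. The control value came from transcripts of 3083 and 3603 bases, at 0.118 and 0.0626 FPKM. In the mutant the transcript of 3603 bases, which starts inside the gene and matched no annotated chain, stood at 0.229 FPKM. Those of 2216, 3136 and 3915 bases stood at 0.151, 0.0688 and 0.0210. Genes that lie near Kif17 without overlap, Ddost and Hp1bp3, had log2 ratios of -0.38 and -0.17. The 5′-most transcript, of 3136 bases, shares its start with Sh2d5, a neighbouring gene that stood at 0.688 and 1.33 FPKM. Sh2d5 overlaps Kif17 by 10558 bases, and the other Kif17 transcripts start beyond its end. Reads of the transcript of 3136 bases, about 5 fragments in the mutant, are therefore not certain to come from Kif17.

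**Figure D3:**
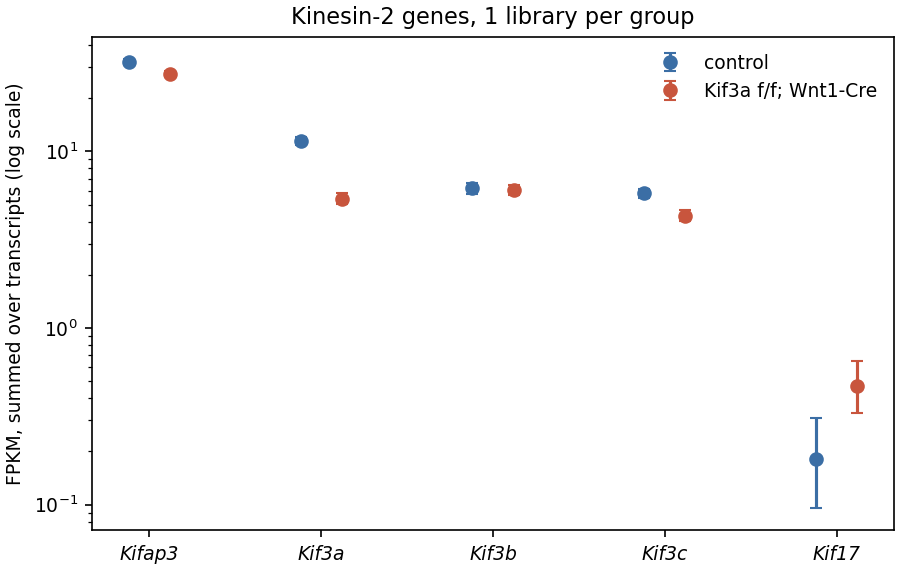
FPKM of the 5 kinesin-2 genes, summed over transcripts (y axis, log scale), in the control (blue) and Kif3a f/f; Wnt1-Cre (red) library, with bars for the 95% Poisson counting interval. Kif3a is at 11.46 in the control and 5.39 in the mutant, Kif3b is at 6.16 and 6.01, and Kif17 lies below 1 in both libraries.

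The order of the members by FPKM, which is per length and can be compared between genes, differed between the libraries. In the control it ran Kifap3, Kif3a, Kif3b, Kif3c and Kif17, with Kif3b and Kif3c overlapping in their counting intervals. In the mutant it ran Kifap3, Kif3b, Kif3a, Kif3c and Kif17. Kif3b and Kif3a overlap there in their intervals, at 5.63 to 6.41 and 5.03 to 5.78, while Kif3c lies below both.

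The balance between the subunit genes is a ratio within a library, so a common scaling of that library cancels. A trend of the log2 ratio with transcript length, given below, does not cancel between genes of unlike length. With it removed, Kif3a had a log2 ratio of -0.99, Kif3b -0.07, Kif3c -0.48 and Kifap3 -0.14. The balance ratios are given without that correction. Kif3a FPKM was 0.959 of the summed FPKM of its partners Kif3b and Kif3c in the control, at 11.46 against 11.94. In the mutant it was 0.522 of that sum, at 5.39 against 10.3. The mutant ratio was thus 0.544 of the control ratio (0.488 to 0.607, exact conditional interval on approximate fragments).

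The ratio of Kifap3 to the summed partners was 2.68 in the control and 2.66 in the mutant, and the second was 0.991 of the first (0.911 to 1.08). Kifap3 was 2.80 times the Kif3a level in the control and 5.09 times in the mutant library, a ratio of ratios of 1.82 (1.64 to 2.02). Kif3b was 1.07 of Kif3c in the control and 1.39 for the mutant, giving a ratio of ratios of 1.30 (1.14 to 1.49), with the overlap of Kif3c with other transcripts as a limit.

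The sign of the log2 ratio of Kif3b, Kif3c and Kifap3 depended on how the libraries were scaled, while that of Kif3a and Kif17 did not. The Kif3a log2 ratio was below 0 and below the median gene under each of the 10 ways of processing, from -1.07 with a pseudocount of 0.1 to -0.44 with TPM-like scaling. Relative to the median gene it lay between -0.99 and -0.57. Kif17 was above 0 and above the median gene under each of them, from 0.08 to 1.02 and from 0.07 to 1.17, on few fragments. Kif3c was below the median gene under each of them, between -0.47 and -0.12, but its log2 ratio was 0.14 with TPM-like scaling. Kifap3 lay between -0.14 and 0.03 of the median gene and was above it with the most abundant transcript alone. Kif3b lay between -0.07 and 0.12 and was below it once the trend with transcript length was removed. With TPM-like scaling the median gene itself went from -0.13 to 0.39, which is why positions relative to it are given as well.

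**Figure D4:**
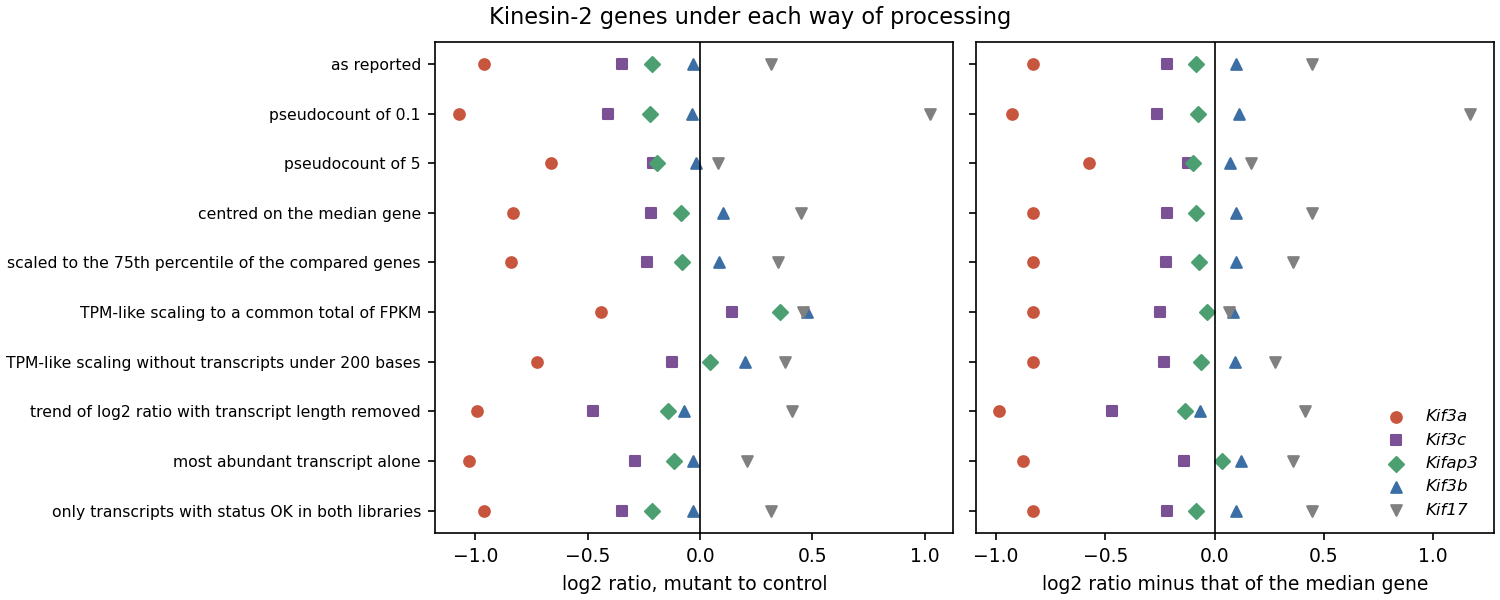
Log2 ratio of mutant to control for the 5 kinesin-2 genes under each way of processing (rows), as computed (left) and after subtraction of the median gene of the same setting (right). Kif3a (red circles) is the lowest member in every row, and Kif3b, Kifap3 and Kif3c change side of 0 with the scaling on the left.

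Genes that work with the motor were followed in 5 lists. The lists were the intraflagellar transport complexes IFT-B, carried outward by the motor, and IFT-A, the retrograde motor dynein-2, the kinases that act at the ciliary tip, and the adhesion and polarity proteins known as KIF3 cargo. Of these, 0 of 41 measured genes were 2-fold different, against 2.13% of all genes, and 0 had a log2 ratio below that of Kif3a, against 1.47% of all genes. Counts of 0 are near these shares, so they set the lists apart from other genes in no way.

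For IFT-B, 17 of 19 listed genes were found and all 17 were over the filter. Their median log2 ratio was -0.11, with 12 below 0 and 8 below the median gene. Ift20, the most abundant, stood at 31.8 and 30.0 FPKM. Ift27 had a log2 ratio of -0.35 and Rabl5 of -0.31, and both were nearer 0, at -0.07 and -0.03, once the trend with transcript length was removed. For IFT-A the median over 5 genes was 0.08, with 3 above 0 and 2 below. The 2 below were Ift122 at -0.22 and Ift140, the most abundant, at -0.20, while Wdr19 was highest at 0.20. With the trend with transcript length removed, these 3 genes had -0.16, -0.26 and 0.12.

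The 8 dynein-2 genes had a median of -0.19. Dync2li1, its light intermediate chain, had the lowest log2 ratio at -0.56, with 17.9 and 11.8 FPKM, and Dynlrb1 had -0.46. With the trend with transcript length removed, Dync2li1 had -0.31, Dynlrb1 -0.17 and the heavy chain gene Dync2h1 -0.30, in place of 0.22. Dynll1, a light chain shared with other dyneins, was the most abundant at 195 and 164 FPKM. Of the tip kinases, Ick stood at 13.8 and 16.1 FPKM and Cdk20 at 3.09 and 2.65.

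The 9 adhesion and polarity genes had a median of -0.12. Ctnnb1, which encodes beta-catenin, was the most abundant at 451 and 414 FPKM. The polarity gene Pard6a stood at 4.65 and 2.43 FPKM and was at least 1.5-fold lower, with a log2 ratio of -0.72, against 5.57% of all genes. Apc stood at 7.95 and 12.4 FPKM and was at least 1.5-fold higher, at 0.59, against 2.76% of all genes. Both were nearer 0, at -0.47 for Pard6a and 0.14 for Apc, once the trend with transcript length was removed. The other 7 lay between these.

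**Figure D5:**
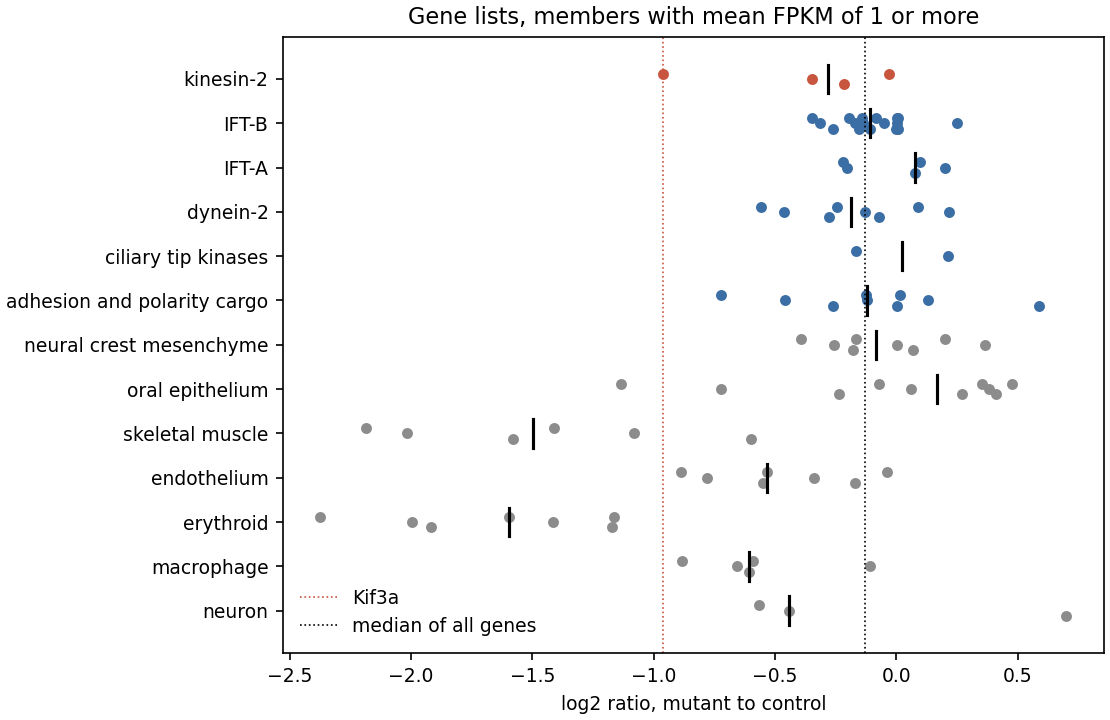
Log2 ratio of mutant to control (x axis) of the measured genes of each list (rows), as points, with black bars for list medians. Kinesin-2 genes are red, genes that work with the motor blue and cell type markers grey, and the dotted lines are Kif3a at -0.96 and the median of all genes at -0.13.

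Cell types that do not descend from the neural crest lie outside the reach of Wnt1-Cre, and the levels of some of their markers differed between the libraries. The summed FPKM of 8 markers of the neural crest mesenchyme was 615 in the control and 587 in the mutant, with all 8 over the filter, a median log2 ratio of -0.08 and 4 of 8 below 0. Summed levels of the 10 epithelial markers were 159 and 169, with unlike members: Krt15 had a log2 ratio of -1.13 and Krt5 of -0.72, while Krt8 had 0.41 and Krt18 0.48. The 7 neuronal markers summed to 17.6 and 17.7, but only 3 were over the filter, with a median log2 ratio of -0.44. Of these, Isl1 stood at 5.53 and 9.62 FPKM, Tubb3 at 8.92 and 6.29 and Nefl at 1.58 and 0.742. Erythroid markers summed to 22169 and 5652 FPKM, with 7 of 7 at least 2-fold lower, and skeletal muscle markers to 43.2 and 13.0, with 5 of 6 measured genes at least 2-fold lower, against 1.36% of all genes. The endothelial sums were 74.95 and 49.9, with 7 of 7 genes below 0 and 2 at least 1.5-fold lower. The macrophage sums were 17.1 and 10.0, with 5 of 5 measured genes below 0 and 4 at least 1.5-fold lower. Of all genes, 5.57% were at least 1.5-fold lower. Members differed, with Tek at -0.04 and Sox18 at -0.89, and C1qb at -0.11 and Fcer1g at -0.88. None of these markers was at 0 in both libraries. Their part in the Kif3a difference was not tested.

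In the libraries as a whole, 94 genes were at least 2-fold higher and 167 at least 2-fold lower in the mutant. The control library held about 24700000 fragments and the mutant library about 24500000, rounded. The balance of these counts moved with the scaling: 132 and 129 after centring on the median gene, 125 and 137 with upper quartile scaling, 460 and 70 with TPM-like scaling, 158 and 110 when transcripts under 200 bases were left out of that scaling, and 126 and 109 without the length trend. The log2 ratio followed transcript length, with a Spearman correlation of 0.407 over the genes compared, which are no independent replicates and share the same libraries. With lengths of 5438, 5631 and 6849 bases, the main transcripts of Kif3a, Kif3b and Kif3c are similar in this respect, and their log2 ratios were -0.99, -0.07 and -0.48 with the trend removed.

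The genes nearest to Kif3a over the 2 libraries were sought by the Euclidean distance of log2(FPKM + 1) among 7997 genes with established names and a mean of at least 5 FPKM. They were Crat, at a distance of 0.09, Osr2 (0.10), Fez1 (0.15), Scube1 (0.16) and C1qtnf6 (0.19). Crat stood at 10.7 and 5.57 FPKM and Osr2 at 11.7 and 5.83. With only 2 libraries, such likeness means a similar level and ratio.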

How the data were processed

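Total RNA of pooled mandibular prominences was sequenced with standard Illumina chemistry, per the labels. The authors deposited 1 table per library with FPKM, coverage signal and length per UCSC known transcript, per the file headers; the naming of the tables gives Cufflinks, and its version, the aligner and the strandedness were not given in the sources used here. According to the submitters' processing notes the build was mm9, yet 72.1% of 45475 transcripts with a shared symbol had a start or end identical to GENCODE M21, so coordinates are printed as GRCm38, counted from 1. Columns were displaced by spaces in the name in 65 lines per library, which were left out. FPKM was summed by gene, and genes with a mean of 1 or more were compared with a pseudocount of 1. Fragments were approximated as the deposited coverage signal times length, divided by 156 bases (control) or 153 bases (mutant), the median of the lowest values (80 to 220 bases) of long single-transcript genes. These steps are blurred, so fragment numbers are approximate. Intervals are exact at 95% (Poisson for a level, Clopper-Pearson for a ratio, conditional for a ratio of ratios; scipy 1.17.1) and cover counting error only. The length trend was a lowess fit (statsmodels 0.14.6, fraction 0.3). The calculation was tested on simulated data. Named genes were the members, the most abundant and the 2 most different genes of each list, neighbours within 10 kb and the 5 genes nearest to Kif3a. The members and lists were chosen with earlier results of these data known.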

Additional observations from a re-analysis of the deposited data

How the results depend on the processing

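The Kif3a log2 ratio of -0.96 stayed below 0 under all 9 alternatives. It moved by more than its counting interval to -0.66 with a pseudocount of 5, -0.83 centred on the median gene, -0.44 with TPM-like scaling and -0.73 with that scaling without transcripts under 200 bases. The count of kinesin-2 genes at least 2-fold different was 0, and it was 1 (Kif3a) with a pseudocount of 0.1, with the most abundant transcript alone, and at a fold of 1.5. Over all genes, the counts higher and lower were 179 and 312 with a pseudocount of 0.1, 36 and 56 with a pseudocount of 5, 460 and 70 with TPM-like scaling, 158 and 110 without short transcripts in it, and 54 and 88 at a mean FPKM of 5 or more; 109 were lower with the length trend removed. The cause of these shifts was not tested. No paired analysis was possible because each group is 1 library, and for the same reason no replicate could be left out. Depth limits Kif17 and the minor Kif3a transcripts, which rest on few fragments.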
